A study of Mus musculus with 30 samples.

Results

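Interferon-stimulated genes are the genes that cells switch on when type I or type II interferon binds its receptor. The 37 genes described here were chosen by symbol from a module of such genes and were found in both deposited count tables, among 23703 gene symbols that the tables share. They comprise 3 transcription factors of the pathway, 5 members of the oligoadenylate synthetase (OAS) family, 3 IFIT genes, 4 sensors of foreign RNA or DNA, 2 components of the ISG15 system, 3 genes of the PARP and DTX3L group, 2 guanylate-binding proteins, 8 other antiviral effectors and 7 further inducible genes. The study exposed primary mouse cells to compounds that bind liver X receptors (LXR), nuclear receptors for oxidised sterols, and sequenced polyadenylated RNA. Macrophages drawn to the peritoneum by thioglycollate were grown in RPMI and hepatocytes in Hepatozyme medium. Each cell type received desmosterol at 10 uM, a sterol intermediate that binds LXR, or DMHCA or MePipHCA at 1 uM, both cholenamides that differ in the amine of the side-chain amide, or GW3965 or T0901317 at 1 uM, both synthetic LXR agonists, and the control cultures received vehicle (DMSO / EtOH). All groups, vehicle included, spent 24 hours before the ligand in lipid-deficient serum at 10%, together with mevalonate at 50 uM and the statin mevastatin at 10 uM, and the ligand was then present for 18 to 20 hours. There were 3 libraries per macrophage group and 2 per hepatocyte group, 30 in all. No strain, sex or age is given, and nothing says whether the libraries of a group came from separate animals or cultures, so each p-value reflects no more than the spread among these libraries, which may be technical.

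In this pathway type I interferon acts through a complex that holds STAT2 and IRF9 and binds the interferon-stimulated response element in the promoters of target genes. Resting macrophages keep many of these genes at a low tonic level, and IRF7 is both a target and an amplifier of the response. Ligand-bound LXR is known to dampen inflammatory genes in macrophages.

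Libraries held 3862655 to 15685961 counts in macrophages and 6627812 to 18626562 counts in hepatocytes. Abca1 is the cholesterol exporter that LXR induces. With the 5 ligands in macrophages it stood at 1200 to 3150 CPM (counts scaled to a common library size). With vehicle it stood at 144 to 164 CPM there. In hepatocytes Abca1 stood at 190 and 158 CPM with vehicle, 801 and 841 CPM with GW3965 and 857 and 987 CPM with T0901317. It stood at 202 and 205 CPM with desmosterol, 165 and 162 CPM with DMHCA and 101 and 104 CPM with MePipHCA. In hepatocytes the DMHCA libraries thus lay within the vehicle range and the MePipHCA libraries below it. The labelled cell types carried their markers, with a summed 12800 to 13100 CPM of 7 macrophage markers in MePipHCA macrophages and 16000 to 16100 CPM in vehicle macrophages. Hepatocyte cultures also held 342 to 369 CPM of 8 macrophage markers with vehicle. In bulk RNA such as this, fewer cells of a type and less RNA per cell cannot be told apart.

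Promoters are shown for the members with the largest fall with MePipHCA in macrophages whose window holds a match to the response element, and for a pair of falling members without one. RefSeq promoter windows on GRCm38.p6, 250 bases before to 50 bases after the annotated start, matched 27 of the 37 members, and Dhx58, Ifi27l2a, Mx1, Mx2, Oas2, Parp9, Parp14, Rtp4, Usp18 and Zbp1 had no entry. The core of the response element, 2 copies of GAAA with any 2 bases between them, read on either strand, occurred in 14 of the 27 (51.9%), against 3.99% of the 27025 genes in the table. Among the 27, matches lay in 9 of the 19 that fell with MePipHCA in macrophages (47.4%) and in 5 of the other 8 (62.5%). A match is a description of the letters, not evidence of a bound site. Each sequence runs 5′ to 3′ on the strand of its gene, and capitals mark the matches of that core or its reverse complement, TTTC, any 2 bases, TTTC. The windows are Ifit3 at chr19:34583279-34583578 (plus strand), Oas3 at chr5:120777610-120777909 (minus strand), Gbp2 at chr3:142620413-142620712 (plus strand), Ifit1 at chr19:34640639-34640938 (plus strand), Ddx58 at chr4:40239776-40240075 (minus strand), Stat2 at chr10:128270248-128270547 (plus strand), Ifit2 at chr19:34550444-34550743 (plus strand) and Oasl2 at chr5:114896684-114896983 (plus strand). The first 6 hold a match and Ifit2 and Oasl2 hold none in this window.
Ifit3: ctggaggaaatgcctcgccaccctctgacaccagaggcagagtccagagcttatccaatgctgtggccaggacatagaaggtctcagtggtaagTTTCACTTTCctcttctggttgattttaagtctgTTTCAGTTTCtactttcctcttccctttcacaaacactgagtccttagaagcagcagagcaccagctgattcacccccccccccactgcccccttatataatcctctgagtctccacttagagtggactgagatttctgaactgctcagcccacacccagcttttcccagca
Oas3: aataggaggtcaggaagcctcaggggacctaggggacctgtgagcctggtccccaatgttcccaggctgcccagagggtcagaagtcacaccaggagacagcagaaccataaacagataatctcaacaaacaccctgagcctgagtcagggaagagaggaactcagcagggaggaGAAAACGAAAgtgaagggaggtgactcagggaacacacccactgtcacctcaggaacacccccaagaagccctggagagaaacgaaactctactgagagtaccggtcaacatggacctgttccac
Gbp2: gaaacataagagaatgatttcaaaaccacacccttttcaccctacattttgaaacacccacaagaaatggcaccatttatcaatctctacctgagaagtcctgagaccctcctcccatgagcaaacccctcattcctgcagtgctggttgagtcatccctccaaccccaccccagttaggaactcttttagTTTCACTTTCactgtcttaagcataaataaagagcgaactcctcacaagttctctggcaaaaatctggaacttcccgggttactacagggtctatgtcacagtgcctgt
Ifit1: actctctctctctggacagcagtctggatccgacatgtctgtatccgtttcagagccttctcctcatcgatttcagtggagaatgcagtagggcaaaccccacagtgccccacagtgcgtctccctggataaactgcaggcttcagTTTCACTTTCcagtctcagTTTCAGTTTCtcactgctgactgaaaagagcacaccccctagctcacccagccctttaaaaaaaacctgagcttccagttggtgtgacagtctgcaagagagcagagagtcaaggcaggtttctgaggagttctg
Ddx58: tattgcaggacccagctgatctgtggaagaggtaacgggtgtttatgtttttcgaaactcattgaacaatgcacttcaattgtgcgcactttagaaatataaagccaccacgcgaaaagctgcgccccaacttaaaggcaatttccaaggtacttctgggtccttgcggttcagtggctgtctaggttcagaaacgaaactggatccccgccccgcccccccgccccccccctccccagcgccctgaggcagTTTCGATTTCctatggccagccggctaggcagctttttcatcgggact
Stat2: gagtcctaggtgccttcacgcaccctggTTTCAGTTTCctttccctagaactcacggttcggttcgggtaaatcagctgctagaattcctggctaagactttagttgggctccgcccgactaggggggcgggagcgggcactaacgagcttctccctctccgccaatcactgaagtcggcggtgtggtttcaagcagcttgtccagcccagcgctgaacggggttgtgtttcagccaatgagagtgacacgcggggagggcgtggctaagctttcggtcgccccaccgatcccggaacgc
Ifit2: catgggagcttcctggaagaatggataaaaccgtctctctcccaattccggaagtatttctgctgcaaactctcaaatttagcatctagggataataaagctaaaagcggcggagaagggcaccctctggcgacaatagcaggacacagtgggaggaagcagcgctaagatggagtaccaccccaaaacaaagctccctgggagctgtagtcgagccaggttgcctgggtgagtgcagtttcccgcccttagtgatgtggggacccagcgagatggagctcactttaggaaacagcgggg
Oasl2: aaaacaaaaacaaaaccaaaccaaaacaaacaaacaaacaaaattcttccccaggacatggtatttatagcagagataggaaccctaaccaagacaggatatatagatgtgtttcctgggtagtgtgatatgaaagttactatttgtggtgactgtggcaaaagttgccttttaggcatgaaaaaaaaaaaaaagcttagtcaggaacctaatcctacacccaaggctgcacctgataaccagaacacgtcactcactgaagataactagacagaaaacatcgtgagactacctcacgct

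MePipHCA lowered most of the interferon-stimulated genes in macrophages. Of the 35 members with enough counts to test, 27 fell and 1, Rsad2, rose with MePipHCA over vehicle, where 35.4% of all 11544 genes tested were called, 18.3% as lower and 17.2% as higher. A call is an adjusted p under 0.05 in the edgeR quasi-likelihood test, with Benjamini-Hochberg adjustment over all genes, and that rule holds for every call below. The median log2 fold change of the tested members was −0.74, against 0 for all genes. In 28 of the 35 all 3 MePipHCA libraries lay below all 3 vehicle libraries, and in 2 they lay above, where 48.1% of all genes had such groups apart and 24.2% had them apart with MePipHCA below. Mx2 and Ifi44, the untested members, reached at most 0.897 and 1.0 CPM in any macrophage library. Every change is given as the log2 fold change ± SE.

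**Figure D1:**
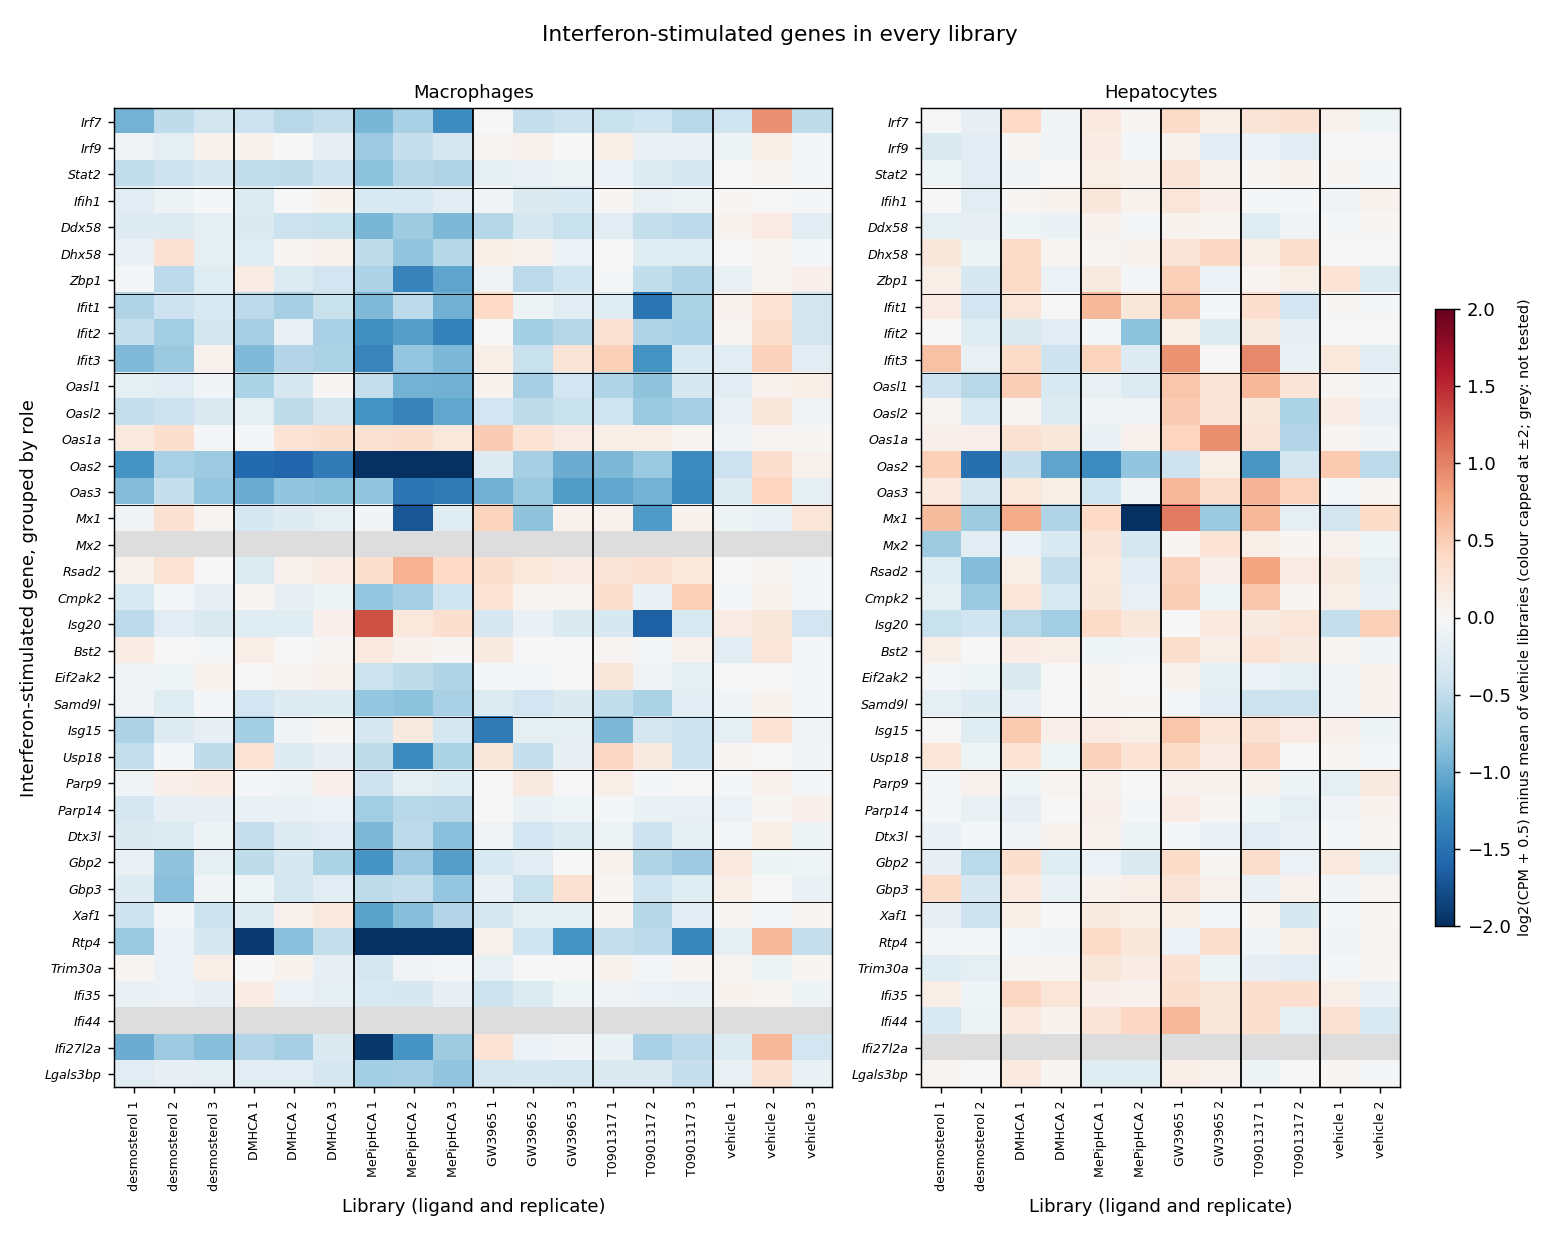
Change of each of the 37 members in every library, as log2(CPM + 0.5) minus the mean of the vehicle libraries of the same cell type, capped at 2 in either direction, with members down the page, libraries across it and untested members in grey. The 3 MePipHCA columns in macrophages are the bluest block, with 27 of 35 tested members called lower, and macrophage vehicle replicate 2 stands above its fellow vehicle libraries in most members.

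All 3 transcription factors fell with MePipHCA in macrophages. Irf7, which drives the late wave of interferon and target transcription, had 8.66, 10.4 and 6.75 CPM with MePipHCA, against 12.5, 31.7 and 11.6 CPM with vehicle. The MePipHCA libraries lay below all 3 vehicle libraries, whose second library held more Irf7 than any other macrophage library. The fitted change was −1.20 ± 0.26 (adjusted p = 0.000259) with all vehicle libraries and −0.52 (adjusted p = 0.0351) without vehicle replicate 2. Stat2, a subunit of the type I complex, had 27.3, 32.8 and 32.0 CPM with MePipHCA, against 48.3, 50.6 and 47.3 CPM with vehicle. The Stat2 groups did not overlap, and the vehicle libraries lay close together (−0.67 ± 0.09, adjusted p = 6.4e-08). Irf9, the DNA-binding subunit of that complex, had 20.4, 24.5 and 26.8 CPM with MePipHCA, against 31.8, 37.1 and 33.3 CPM with vehicle, again without overlap (−0.50).

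In the OAS family, whose enzymes make the oligoadenylate that activates the antiviral nuclease RNase L, 4 of 5 members fell with MePipHCA. Oas2 had 1.08, 0.472 and 0.587 CPM with MePipHCA, against 5.72, 10.1 and 8.36 CPM with vehicle. These Oas2 values rest on 5, 2 and 4 counts with MePipHCA and 62, 161 and 99 counts with vehicle, and the groups were far apart. The change of −3.51 ± 0.36 (adjusted p = 1.52e-10) was the largest among the members. Oas3, the largest of these enzymes, had 20.4, 12.7 and 13.1 CPM with MePipHCA, against 29.8, 48.5 and 31.6 CPM with vehicle. Oas3 did not overlap between the groups, although MePipHCA replicate 1 was nearer to vehicle than the other MePipHCA libraries (−1.29 ± 0.16, adjusted p = 2.04e-08). Oasl2, an OAS-like protein with ubiquitin-like domains, had 24.3, 21.9 and 27.0 CPM with MePipHCA, against 50.5, 65.5 and 53.4 CPM with vehicle (−1.20 ± 0.11, adjusted p = 2.76e-12). Every MePipHCA library of Oasl2 lay well below every vehicle library. Oasl1, which restrains translation of Irf7 mRNA, fell too (−0.85), while Oas1a had a fitted change of 0.28 (adjusted p = 0.101). Oas2, Oas3 and Oas1a lie on the same strand of mouse chromosome 5, on mm10 at chr5:120730333-120749848, chr5:120753098-120777659 and chr5:120896257-120907525, and Oas1a is set apart from the other two by a wider gap than that between them. Reads of Oas1a can be shared with its close paralogues, which makes its value uncertain.

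All 3 IFIT genes fell with MePipHCA, among them Ifit1, whose protein binds viral RNA lacking host cap marks. Ifit2 had 3.25, 3.54 and 2.93 CPM with MePipHCA, against 8.49, 10.4 and 6.25 CPM with vehicle (−1.40 ± 0.27, adjusted p = 4.41e-05). Ifit3 had 0.65, 1.18 and 1.03 CPM with MePipHCA, against 1.94, 3.44 and 1.94 CPM with vehicle, from 3, 5 and 7 counts with MePipHCA and 21, 55 and 23 with vehicle. Neither gene overlapped between the groups, but Ifit3 (−1.38 ± 0.46, adjusted p = 0.0175) rests on few counts and has a near-identical copy that can take its reads. Ifit1 had 1.73, 2.36 and 1.61 CPM with MePipHCA, against 3.88, 4.5 and 2.7 CPM with vehicle (−1.0), also without overlap. The Ifit3 call was lost when MePipHCA replicate 1 (−1.19, adjusted p = 0.0844), MePipHCA replicate 3 (−1.45, adjusted p = 0.0635) or vehicle replicate 2 (−1.01, adjusted p = 0.142) was left out. The Ifit1 call was lost without the same 3 libraries, with changes of −0.96, −0.87 and −0.81 in that order and adjusted p of 0.05, 0.099 and 0.089.

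All 4 sensors fell with MePipHCA. Ddx58, which encodes the RNA sensor RIG-I, had 21.0, 24.1 and 21.1 CPM with MePipHCA, against 41.8, 44.7 and 33.9 CPM with vehicle (−0.88), with no overlap. Zbp1, a sensor of Z-form nucleic acid, had 4.55, 2.59 and 3.23 CPM with MePipHCA, against 6.55, 7.5 and 7.85 CPM with vehicle (−1.08). Dhx58, which encodes LGP2, fell by 0.63 and Ifih1, which encodes MDA5, by 0.27 on the log2 scale. The call of Ifih1 was lost without MePipHCA replicate 1 (−0.25, adjusted p = 0.0697) or replicate 2 (−0.25, adjusted p = 0.0683).

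Among the remaining effectors, Gbp2, a guanylate-binding GTPase that attacks pathogen-containing vacuoles, had 8.88, 12.3 and 9.39 CPM with MePipHCA, against 23.8, 19.2 and 19.4 CPM with vehicle (−1.04). Gbp3 fell by 0.64 on the log2 scale, a call lost without MePipHCA replicate 3 (−0.52, adjusted p = 0.102). Samd9l, a restriction factor against poxviruses, had 53.5, 52.1 and 58.8 CPM with MePipHCA, against 88.5, 97.2 and 90.7 CPM with vehicle (−0.74). Both genes had all MePipHCA libraries below all vehicle libraries. Parp14, a mono-ADP-ribosyltransferase, had 90.1, 99.3 and 98.4 CPM with MePipHCA, against 135, 148 and 156 CPM with vehicle (−0.61). Dtx3l, a ubiquitin ligase, had 34.0, 44.1 and 35.2 CPM with MePipHCA, against 62.3, 69.6 and 59.2 CPM with vehicle (−0.77). Its partner Parp9 fell less (−0.29), and that call was lost without MePipHCA replicate 1 (−0.23, adjusted p = 0.0796) or vehicle replicate 2 (−0.24, adjusted p = 0.0597). Parp9 and Dtx3l overlap on opposite strands. The libraries mark strand, but the sources used here do not say whether the counting used it, so their values are uncertain where the genes overlap. Usp18, the protease that removes ISG15 from proteins and restrains interferon receptor signalling, fell (−0.82) except without MePipHCA replicate 2 (−0.63, adjusted p = 0.0858). Cmpk2, a mitochondrial nucleotide kinase, and Eif2ak2, the double-stranded-RNA kinase PKR, fell by 0.62 and 0.53 on the log2 scale.

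Rtp4, a receptor-transporting protein, had 1.08, 0.943 and 0.733 CPM with MePipHCA, against 5.44, 10.2 and 4.47 CPM with vehicle, from 5, 4 and 5 counts with MePipHCA and 59, 164 and 53 with vehicle. The Rtp4 groups did not overlap, and its fall was next in size to that of Oas2 (−2.93, adjusted p = 9e-07). Ifi27l2a, a small interferon-induced protein, had 0.217, 0.708 and 1.17 CPM with MePipHCA, against 1.75, 3.81 and 1.6 CPM with vehicle. Its groups were apart, but the call (−1.69 ± 0.47, adjusted p = 0.0039) was lost without vehicle replicate 2 (−1.13, adjusted p = 0.0891). Lgals3bp, a secreted galectin-binding glycoprotein and among the most abundant members, had 194, 195 and 179 CPM with MePipHCA, against 279, 380 and 282 CPM with vehicle (−0.74). Xaf1, a pro-apoptotic protein, also fell (−0.89).

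A few members went the other way or were not called. Rsad2, which encodes viperin, the radical-SAM enzyme that makes a chain-terminating nucleotide, had 47.0, 61.1 and 49.4 CPM with MePipHCA, against 37.5, 38.2 and 36.7 CPM with vehicle. Rsad2 thus stood higher in every MePipHCA library (0.48 ± 0.10, adjusted p = 9.27e-05), while its neighbour Cmpk2 on chromosome 12 fell. Isg20, an exonuclease, had 6.93, 3.07 and 3.37 CPM with MePipHCA, against 2.95, 3.12 and 1.86 CPM with vehicle, overlapping groups (0.71 ± 0.31, adjusted p = 0.0691). Isg15, the ubiquitin-like modifier, had 2.82, 4.25 and 2.79 CPM with MePipHCA, against 3.14, 4.56 and 3.46 CPM with vehicle (−0.23, adjusted p = 0.595). Bst2, which tethers virions, Trim30a and Ifi35 had fitted changes of 0.08, −0.13 and −0.26 without a call. Mx1, a dynamin-like GTPase, was at most 1.73 CPM in all macrophage libraries (−0.70, adjusted p = 0.369).

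**Figure D2:**
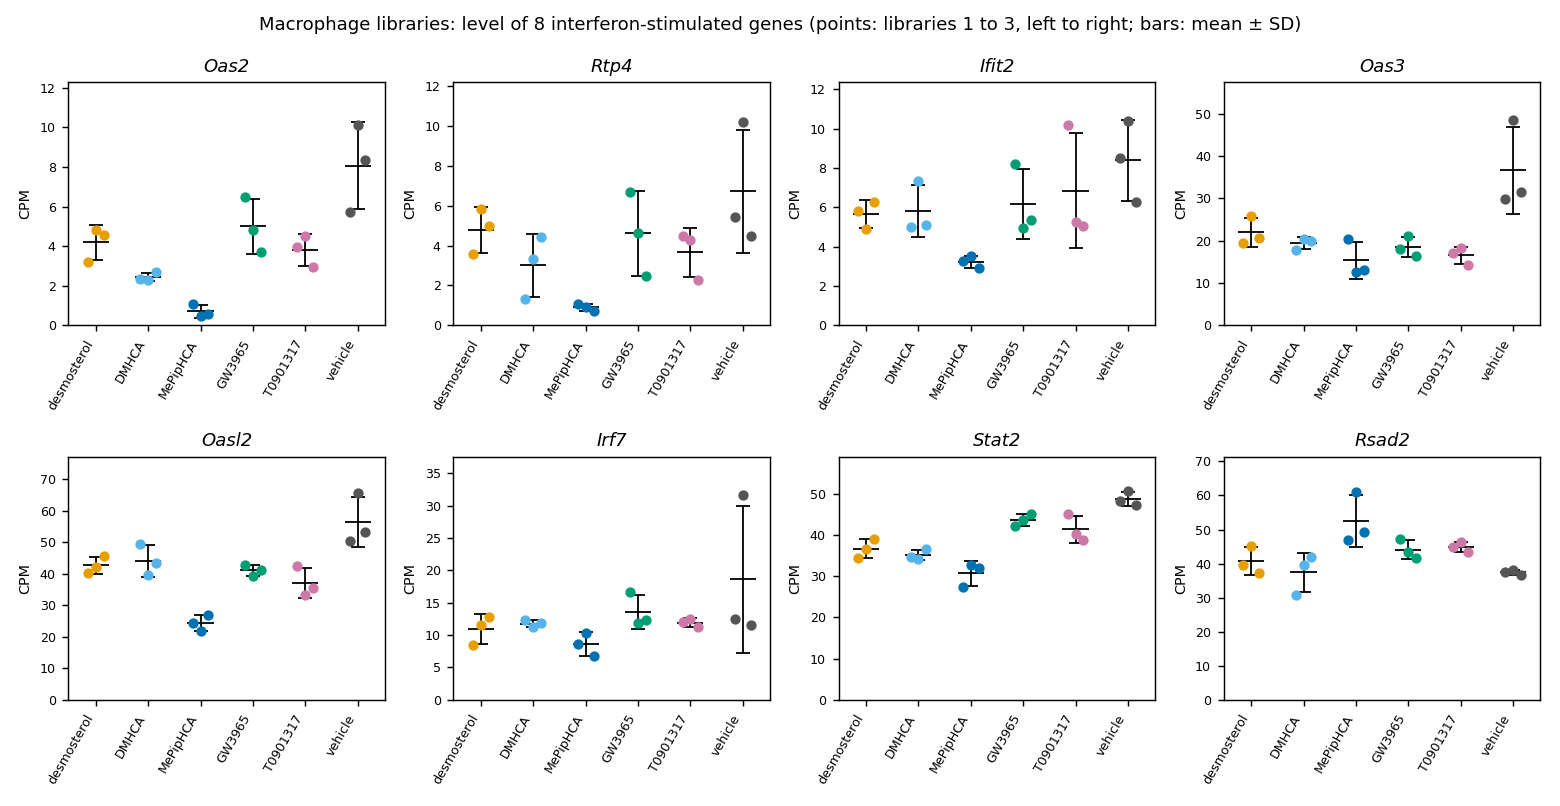
CPM of 8 members in each of the 18 macrophage libraries, with 1 panel per gene, a linear axis that starts at 0, 1 point per library, and black bars at the group mean ± SD. In Oas2, Rtp4, Ifit2, Oasl2 and Stat2 the 3 MePipHCA points lie below every vehicle point, in Rsad2 they lie above, and in Irf7 and Oas3 the highest vehicle point is replicate 2, at 31.7 and 48.5 CPM.

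Markers of other cells moved with MePipHCA in the same macrophage libraries. All 6 stromal markers fell, with a summed 79.9 to 96.9 CPM in MePipHCA libraries and 243 to 309 CPM in vehicle libraries, and none was at 0. All 4 mesothelial markers fell, with 5.41 to 7.04 CPM in MePipHCA libraries and 17.5 to 24.8 CPM in vehicle libraries, and none was at 0. Of 7 macrophage markers, Lyz2, Itgam, Fcgr1 and Csf1r fell and Mertk rose. The 6 T and NK cell markers summed to 0.65 to 1.03 CPM with MePipHCA and 2.86 to 3.5 CPM with vehicle, with Cd8a at 0 in the MePipHCA libraries and Cd3d and Klrb1c at 0 in the vehicle libraries. The 6 markers of plasmacytoid and other dendritic cells summed to 57.4 to 65.1 CPM with MePipHCA, with Flt3 and Xcr1 at 0, and to 69.2 to 73 CPM with vehicle. The 5 Kupffer cell markers summed to 151 to 159 CPM with MePipHCA and 48.8 to 52.9 CPM with vehicle, with Clec4f at 0 in both. This rise was not particular to MePipHCA. The same sum was 97.5 to 125 CPM with desmosterol, 155 to 183 CPM with DMHCA, 201 to 224 CPM with GW3965 and 220 to 232 CPM with T0901317. Summed endothelial markers were 25.9 to 32.1 CPM with MePipHCA and 26.7 to 28.1 CPM with vehicle, neutrophil markers 6.6 to 9.1 CPM with MePipHCA and 8.44 to 10.4 CPM with vehicle, and B cell markers 1.52 to 2.2 CPM with MePipHCA and 2.11 to 2.31 CPM with vehicle. The part of these cells in the fall of the interferon-stimulated genes was not tested.

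With the other 4 ligands fewer members were called lower in macrophages and none higher, and MePipHCA was set directly against DMHCA and T0901317 only. All share the vehicle libraries, so their counts are not independent. Desmosterol lowered 7 of 35 (9.5% of all genes were called, 4.57% as lower and 4.93% as higher), with a median log2 fold change of −0.25. DMHCA lowered 11 of 35 (11.7% of all genes called, 5.9% as lower and 5.8% as higher; median −0.24). GW3965 lowered 7 of 35 (13.2% called, 6.69% as lower and 6.54% as higher; median −0.16) and T0901317 lowered 9 of 35 (12.8% called, 6.55% as lower and 6.29% as higher; median −0.26). The median over all genes was 0 with each ligand. All libraries of the ligand lay below all vehicle libraries for 10 members with desmosterol, 14 with DMHCA, 8 with GW3965 and 9 with T0901317, where 12.7%, 14.1%, 14.1% and 13.1% of all genes, in the same order, lay so. With MePipHCA counted too, Oas2, Oas3 and Oasl2 were called lower with all 5 ligands.

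Oas3 had 19.4, 25.9 and 20.6 CPM with desmosterol, 17.8, 20.4 and 20.0 CPM with DMHCA, 18.1, 21.1 and 16.3 CPM with GW3965 and 17.1, 18.3 and 14.3 CPM with T0901317, against 29.8, 48.5 and 31.6 CPM with vehicle. All 12 of these libraries lay below the lowest vehicle library. The changes were −0.92 ± 0.15 with DMHCA (adjusted p = 1.97e-05), −1.01 ± 0.15 with GW3965 (adjusted p = 1.5e-06), −1.21 ± 0.16 with T0901317 (adjusted p = 9.92e-08) and −0.75 ± 0.14 with desmosterol, given at 10 uM (adjusted p = 9.85e-05). Without vehicle replicate 2 the Oas3 change with desmosterol was −0.48 (adjusted p = 0.0185). Oas2 had 3.19, 4.82 and 4.55 CPM with desmosterol, 2.36, 2.27 and 2.67 CPM with DMHCA, 6.48, 4.8 and 3.7 CPM with GW3965 and 3.97, 4.51 and 2.95 CPM with T0901317, against 5.72, 10.1 and 8.36 CPM with vehicle. Its lowest values among these 4 were with DMHCA (−1.72 ± 0.27, adjusted p = 6.49e-06), and GW3965 replicate 1 overlapped vehicle. Without vehicle replicate 2 the Oas2 call was lost with desmosterol (−0.74, adjusted p = 0.0563) and with GW3965 (−0.56, adjusted p = 0.198). The GW3965 call of Oas2 (−0.77, adjusted p = 0.0158) was also lost without GW3965 replicate 2 (adjusted p = 0.0634), GW3965 replicate 3 (adjusted p = 0.187) or vehicle replicate 3 (adjusted p = 0.0526). Oasl2 had 40.3, 42.2 and 45.6 CPM with desmosterol, 49.5, 39.5 and 43.3 CPM with DMHCA, 42.7, 39.4 and 41.1 CPM with GW3965 and 42.4, 33.3 and 35.4 CPM with T0901317, against 50.5, 65.5 and 53.4 CPM with vehicle. No ligand library of Oasl2 reached the lowest vehicle library, and the change ran between −0.38 ± 0.10 with DMHCA and −0.63 ± 0.10 with T0901317. The Oasl2 call was lost without vehicle replicate 2 with desmosterol (−0.28, adjusted p = 0.0648) and with DMHCA (−0.25, adjusted p = 0.138), and without DMHCA replicate 2 with DMHCA (−0.31, adjusted p = 0.0682).

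Stat2 had 34.4, 36.5 and 39.0 CPM with desmosterol, 34.6, 34.2 and 36.5 CPM with DMHCA, 42.3, 43.7 and 45.2 CPM with GW3965 and 45.1, 40.3 and 38.9 CPM with T0901317, against 48.3, 50.6 and 47.3 CPM with vehicle. Desmosterol (adjusted p = 0.000161) and DMHCA (−0.47 ± 0.09, adjusted p = 8.53e-05) lowered Stat2, and leaving out any library kept both calls. The call with T0901317 (−0.25 ± 0.08, adjusted p = 0.0378) was lost without T0901317 replicate 2 or 3 or any 1 vehicle library, with changes of −0.19 to −0.27, and GW3965 gave no call (−0.15 ± 0.08, adjusted p = 0.258). Irf7 had 8.4, 11.6 and 12.8 CPM with desmosterol, 12.3, 11.2 and 11.8 CPM with DMHCA, 16.6, 11.9 and 12.3 CPM with GW3965 and 12.1, 12.5 and 11.2 CPM with T0901317, against 12.5, 31.7 and 11.6 CPM with vehicle. All 4 groups overlapped vehicle replicates 1 and 3. Irf7 was called lower with desmosterol (−0.81 ± 0.21, adjusted p = 0.00906), DMHCA (−0.71 ± 0.24, adjusted p = 0.0426) and T0901317 (−0.70 ± 0.24, adjusted p = 0.0394) but not with GW3965 (−0.53 ± 0.23, adjusted p = 0.13). Without vehicle replicate 2 the change of Irf7 was −0.14 with desmosterol (adjusted p = 0.762), −0.04 with DMHCA (adjusted p = 0.95), −0.03 with T0901317 (adjusted p = 0.965) and, turned upward, 0.15 with GW3965 (adjusted p = 0.748). The Irf7 calls were also lost without desmosterol replicate 1 (adjusted p = 0.0632), without any 1 DMHCA library (adjusted p = 0.0833 to 0.146) and without any 1 T0901317 library (adjusted p = 0.0693 to 0.219).

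Rtp4 had 1.31, 3.32 and 4.41 CPM with DMHCA and 4.46, 4.26 and 2.26 CPM with T0901317, against 5.44, 10.2 and 4.47 CPM with vehicle. The highest DMHCA and T0901317 libraries lay just under the lowest vehicle library. Both calls of Rtp4 (−1.07 ± 0.32, adjusted p = 0.0231, and −1.08 ± 0.32, adjusted p = 0.0176, in that order) were lost without vehicle replicate 2, with −0.59 (adjusted p = 0.386) and −0.60 (adjusted p = 0.353). They were lost as well without DMHCA replicate 1 (−0.82, adjusted p = 0.142) or 2 (−1.08, adjusted p = 0.0725) and without T0901317 replicate 3 (−0.66, adjusted p = 0.354). Ddx58 had 32.7, 29.5 and 29.1 CPM with DMHCA, 26.8, 31.0 and 29.2 CPM with GW3965 and 34.0, 28.6 and 27.7 CPM with T0901317, against 41.8, 44.7 and 33.9 CPM with vehicle. DMHCA and GW3965 libraries of Ddx58 all lay below vehicle and 1 T0901317 library did not. It fell with GW3965 (−0.47 ± 0.10, adjusted p = 0.000513). Its fall with DMHCA (adjusted p = 0.00355) missed the threshold when vehicle replicate 2 was left out (−0.32, adjusted p = 0.0638), and its fall with T0901317 (adjusted p = 0.00126) did so when T0901317 replicate 3 was left out (−0.37, adjusted p = 0.0513). Samd9l had 75.8, 70.8 and 75.4 CPM with GW3965 and 65.5, 59.4 and 79.2 CPM with T0901317, against 88.5, 97.2 and 90.7 CPM with vehicle, and neither group overlapped vehicle. Lgals3bp had 243, 248 and 242 CPM with GW3965 and 253, 255 and 225 CPM with T0901317, against 279, 380 and 282 CPM with vehicle. It fell with GW3965 (−0.36) and T0901317 (−0.37). Without vehicle replicate 2, which stood apart from the other vehicle libraries, those changes of Lgals3bp were −0.20 (adjusted p = 0.0229) with GW3965 and −0.21 (adjusted p = 0.0164) with T0901317.

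The remaining calls were few. With desmosterol, Ifi27l2a had 0.869, 1.15 and 1.01 CPM, against 1.75, 3.81 and 1.6 CPM with vehicle (−1.27 ± 0.36, adjusted p = 0.0158), and its call was lost without vehicle replicate 2 (−0.71, adjusted p = 0.394) or desmosterol replicate 1 (−1.18, adjusted p = 0.067). Parp14 had 116, 131 and 130 CPM with desmosterol, against 135, 148 and 156 CPM with vehicle (−0.21 ± 0.06, adjusted p = 0.0144), and lost its call without desmosterol replicate 1 (−0.16), vehicle replicate 2 (−0.21) or vehicle replicate 3 (−0.17). Both calls thus depended on more than 1 library. With DMHCA, Gbp2 had 14.4, 16.4 and 13.2 CPM, against 23.8, 19.2 and 19.4 CPM with vehicle (−0.50 ± 0.17, adjusted p = 0.0391), and lost its call without DMHCA replicate 1 (−0.50), DMHCA replicate 3 (−0.41) or vehicle replicate 1 (−0.40). With GW3965, Dtx3l had 60.7, 48.7 and 52.3 CPM, against 62.3, 69.6 and 59.2 CPM with vehicle, overlapping groups (−0.26, adjusted p = 0.0462). The Dtx3l call with GW3965 was lost without GW3965 replicate 2 (−0.19) or 3 (−0.24) and without vehicle replicate 1 (−0.28) or 2 (−0.19). Dtx3l, Samd9l and Lgals3bp also fell with DMHCA, and all 3 calls were lost without vehicle replicate 2 (−0.23, −0.25 and −0.12 in that order). Of these calls with DMHCA, those of Dtx3l and Samd9l were also lost without DMHCA replicate 1 (−0.25 and −0.26), and that of Lgals3bp without DMHCA replicate 3 (−0.24).

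At the matched dose of 1 uM, MePipHCA was set against DMHCA and against T0901317, 2 pairs in each cell type. MePipHCA had lower levels than DMHCA for 15 of 35 members in macrophages and a higher level for Rsad2 (22.9% of all genes called, 12.1% as lower), with a median log2 fold change of −0.46. The difference was −1.79 ± 0.49 for Oas2 (95% interval −2.78 to −0.79, adjusted p = 0.00594), −1.86 ± 0.55 for Rtp4 (interval −2.97 to −0.75, adjusted p = 0.0107) and −0.82 ± 0.12 for Oasl2 (interval −1.06 to −0.58, adjusted p = 6.46e-07). For Oas2, all 3 MePipHCA libraries, at 0.472 to 1.08 CPM, lay below the DMHCA libraries, at 2.27 to 2.67 CPM. The MePipHCA and DMHCA groups were apart in 24 of 35 members, where 36.6% of all genes had them apart. The Rtp4 call was lost without DMHCA replicate 3 (−1.46, adjusted p = 0.126) or MePipHCA replicate 3 (−1.67, adjusted p = 0.0725), while those of Oas2 and Oasl2 were kept without any 1 library. The other 12 lower members were Xaf1, Zbp1, Ifit2, Dhx58, Eif2ak2, Parp14, Dtx3l, Ddx58, Lgals3bp, Irf9, Samd9l and Parp9. Of these, Ifit2 lost its call without DMHCA replicate 2 (−0.65) or any 1 MePipHCA library (−0.77 to −0.92), Zbp1 without DMHCA replicate 1 (−0.71) or MePipHCA replicate 2 (−0.73) or 3 (−0.79), Xaf1 without DMHCA replicate 3 (−0.84) or MePipHCA replicate 1 (−0.83), and Parp9 without DMHCA replicate 3 (−0.24) or MePipHCA replicate 1 (−0.24). Oas3 (−0.37, interval −0.75 to 0.02), Stat2 (−0.20, interval −0.40 to 0.01) and Irf7 (−0.48, interval −1.10 to 0.13) were not called, which does not show that the compounds act alike on them. MePipHCA had lower levels than T0901317 for 17 of 35 members and a higher level for Isg20 (25.9% of all genes called, 13.9% as lower; median −0.44). Isg20 had 6.93, 3.07 and 3.37 CPM with MePipHCA and 1.98, 0.501 and 2.0 CPM with T0901317, groups that did not overlap (1.40 ± 0.38, adjusted p = 0.00402), but without MePipHCA replicate 1 the call was lost (0.97, adjusted p = 0.0904). The MePipHCA and T0901317 groups were apart in 29 of 35 members, where 37.8% of all genes had them apart. The difference was −2.32 ± 0.45 for Oas2 (adjusted p = 8.7e-05), −1.84 ± 0.55 for Rtp4 (adjusted p = 0.0098), −0.99 for Ifit2 and −0.41 ± 0.10 for Stat2 (adjusted p = 0.000999). The Rtp4 call was lost without MePipHCA replicate 3 (−1.66, adjusted p = 0.0676) and the Ifit2 call without MePipHCA replicate 3 (−0.90, adjusted p = 0.0726) or T0901317 replicate 1 (−0.67, adjusted p = 0.119). Oas3, in contrast, had a difference of −0.08 with an interval of −0.47 to 0.32.

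**Figure D3:**
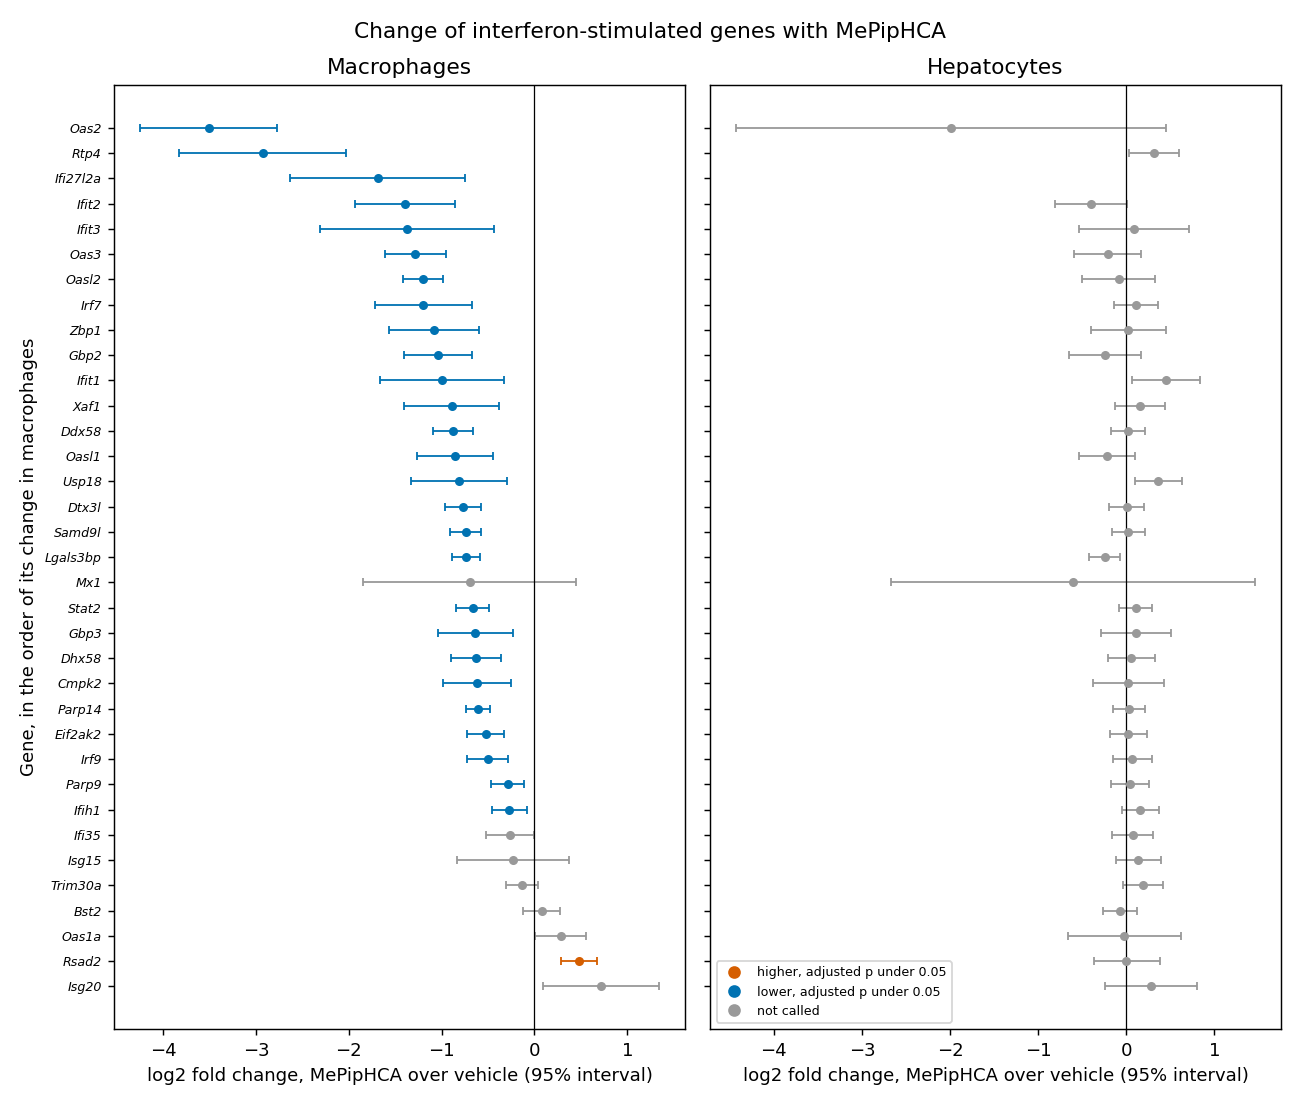
Log2 fold change of MePipHCA over vehicle in macrophages and in hepatocytes, drawn for the 35 members tested in macrophages, with points at the estimate, bars at the 95% interval and a line at 0, meaning no change. Most macrophage points lie left of 0, with Oas2 and Rtp4 farthest out at −3.51 and −2.93, while no hepatocyte point was called.

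The vehicle libraries of the macrophages did not vary alike. Vehicle replicate 2 was the highest vehicle library for 24 of the 35 tested members (68.6%), while it was highest for 33.2% of all genes. Vehicle replicate 1 was highest for 7 and replicate 3 for 4. The SD over the vehicle libraries, on the log2 scale, had a median of 0.138 over the members and 0.096 over all genes, and was widest for Irf7 at 0.8. The ligand groups also spread more over the members than over all genes, with median SDs of 0.161 against 0.12 with desmosterol, 0.135 against 0.129 with DMHCA, 0.201 against 0.122 with MePipHCA, 0.161 against 0.123 with GW3965 and 0.211 against 0.143 with T0901317. A lead library was seen in other groups too, with T0901317 replicate 1 highest for 24 of 35 members (68.6%, against 31.8% of all genes) and GW3965 replicate 1 for 20 (57.1%, against 35.6%). Without vehicle replicate 2 desmosterol called 2 of 35 members, Oas3 and Stat2, which at 5.71% equals the 5.71% of all 11641 genes then called. DMHCA called 4 (11.4%, against 7.71% of all genes), GW3965 5 (14.3%, against 9.61%) and T0901317 6 (17.1%, against 9.98%). In the same setting MePipHCA lowered 23 members and raised 1 (68.6%, against 29.4% of all genes). Without DMHCA replicate 1 instead, DMHCA called 6 (17.1%, against 9.04% of all genes).

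**Figure D4:**
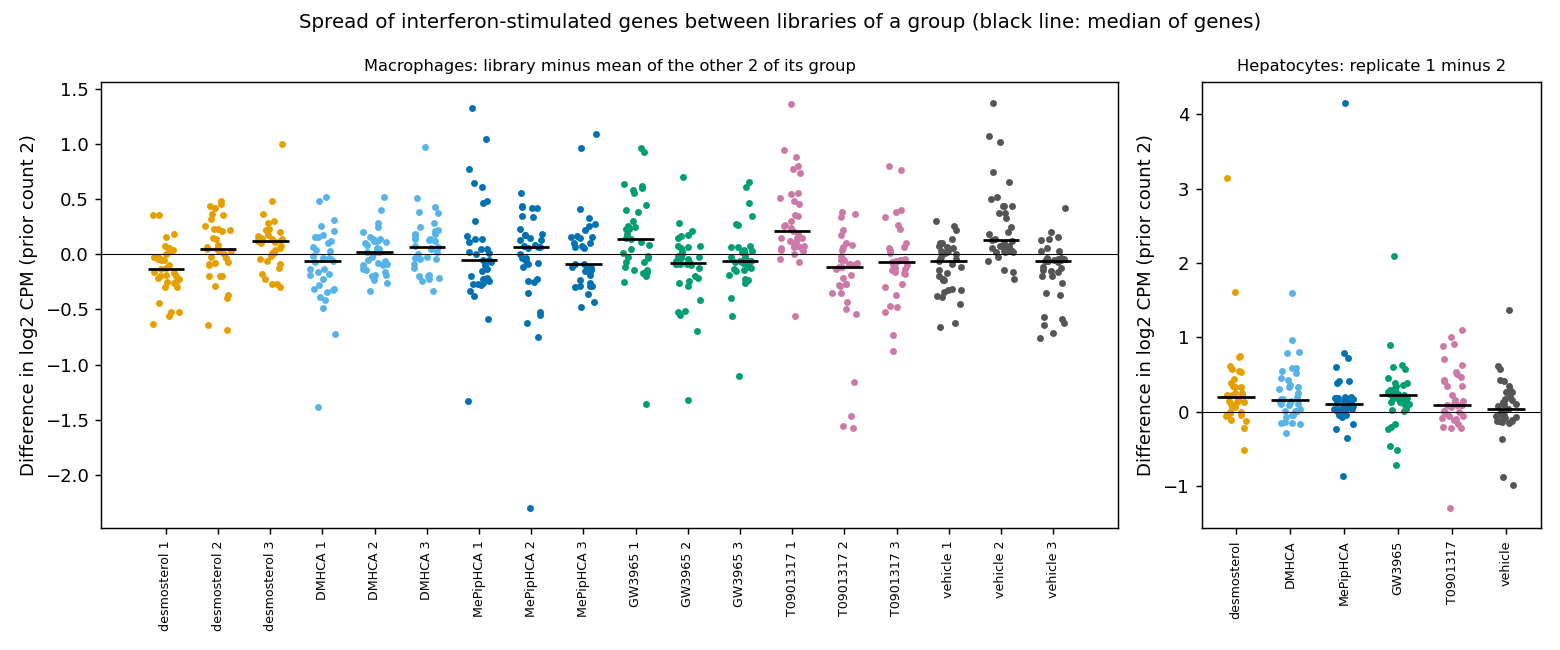
Difference of each library from the others of its group, on the log2 CPM scale with a prior count of 2, with 1 point per member and a bar at the median. In macrophages each library is set against the mean of the other 2, and vehicle replicate 2 lies above 0 for most members, with Irf7 highest, while in hepatocytes, where replicate 1 is set against replicate 2, more points lie above 0 than below it in all 6 groups.

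In hepatocytes hardly any member was called, and with 2 libraries per group a missing call does not show that a member kept its level. Of 36 tested members, Ifi27l2a being at most 0.624 CPM there, none was called with desmosterol (0.364% of all genes), DMHCA (0% of all genes), MePipHCA (2.17% of all genes, 1.38% lower and 0.789% higher) or GW3965 (0.478% of all genes). By edgeR, unadjusted p was under 0.05 for 6, 3, 4 and 9 members in that order (16.7%, 8.33%, 11.1% and 25%), where 8.44%, 4.67%, 11.8% and 8.46% of all genes had such a p. DESeq2 called 0 with each of the 4 ligands. Other settings did give calls, in that with no filter on low counts Oasl1 and Rsad2 were called lower with desmosterol, Usp18 and Ifit1 higher with MePipHCA and Oasl1 and Isg15 higher with GW3965, where 0.775%, 2.35% and 0.908% of all genes were called. In fits of only the 2 groups compared, Oasl1 was called lower with desmosterol and higher with GW3965, and Usp18 and Ifit1 higher with MePipHCA. The calls of these fits are not set here against the share of all genes called, so they describe the setting and not the members. With T0901317, Samd9l alone was called (0.941% of all genes), with 132 and 132 CPM, against 169 and 186 CPM with vehicle (−0.42 ± 0.09, adjusted p = 0.0204). Its call was lost without T0901317 replicate 1 (−0.42, adjusted p = 0.15) or 2 (−0.43, adjusted p = 0.13) and without vehicle replicate 2 (−0.35, adjusted p = 0.294). The median log2 fold change over the members was −0.11 with desmosterol, 0.04 with DMHCA, 0.03 with MePipHCA, 0.17 with GW3965 and 0.03 with T0901317. With GW3965, 30 of the 36 members had a fitted change above 0 (83.3%, against 50.2% of all genes).

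In hepatocytes none of Irf7, Stat2, Rtp4 and Oas2 was called with MePipHCA over vehicle. Of these, Oas2 and Rtp4 were the members that fell most in MePipHCA macrophages. Irf7 had 109 and 97.8 CPM with MePipHCA, against 101 and 89.9 CPM with vehicle (0.11 ± 0.12, interval −0.14 to 0.36). Stat2 had 199 and 194 CPM with MePipHCA, against 186 and 180 CPM with vehicle (interval −0.08 to 0.29). Rtp4 had 56.8 and 50.5 CPM with MePipHCA, against 41.6 and 44.9 CPM with vehicle (0.31 ± 0.14, interval 0.03 to 0.60, adjusted p = 0.36). Rtp4 and Stat2 were thus higher in both MePipHCA libraries without passing the test, and Irf7 overlapped. Groups were apart in 16 of 36 members, 10 with MePipHCA above and 6 below. Of all genes, 43.5% had these groups apart, and 21.5% had them apart with MePipHCA below. Oas2 was too low for a useful reading, with 0.165 and 0.424 CPM with MePipHCA, against 1.79 and 0.605 CPM with vehicle (interval −4.43 to 0.45). Hepatocyte replicate 1 held more than replicate 2 for 27, 28, 28, 30, 23 and 20 of 36 members with desmosterol, DMHCA, MePipHCA, GW3965, T0901317 and vehicle, in that order, where 48.7% to 51.2% of all genes did so. The Rsad2 libraries show this, with 704 and 455 CPM with T0901317, against 457 and 360 CPM with vehicle.

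Between the compounds at 1 uM in hepatocytes, MePipHCA exceeded DMHCA for Isg20 and lay below it for Lgals3bp (3.3% of all genes called, 1.29% as higher and 2.01% as lower). Isg20 had 14.5 and 13.0 CPM with MePipHCA and 7.36 and 6.63 CPM with DMHCA (0.97 ± 0.25, adjusted p = 0.0273), without overlap. For this pair 45.4% of all genes had the groups apart. Lgals3bp had 209 and 211 CPM with MePipHCA and 286 and 254 CPM with DMHCA (−0.36 ± 0.09, adjusted p = 0.0121). Leaving out any 1 of the 4 libraries ended the Isg20 call (0.89 to 1.05, adjusted p = 0.0895 to 0.204). The Lgals3bp call was lost without DMHCA replicate 1 (−0.28, adjusted p = 0.163) or MePipHCA replicate 1 (−0.36, adjusted p = 0.145) or 2 (−0.37, adjusted p = 0.107). Against T0901317, MePipHCA had higher Samd9l (0.45 ± 0.09, adjusted p = 0.00289) and Trim30a (0.38 ± 0.11, adjusted p = 0.0348) and lower Oas3 (−0.79 ± 0.18, adjusted p = 0.00607), Oasl1 (−0.70 ± 0.15, adjusted p = 0.00472) and Bst2 (−0.30 ± 0.09, adjusted p = 0.0474), with 6.05% of all genes called, 3.14% as higher and 2.91% as lower. For Oasl1 that is 187 and 170 CPM with MePipHCA and 329 and 247 CPM with T0901317. Trim30a and Bst2 lost their calls without any 1 of the 4 libraries (0.34 to 0.41 and −0.26 to −0.35), Oas3 without MePipHCA replicate 1 (−0.64) or T0901317 replicate 1 (−0.68), and Oasl1 without MePipHCA replicate 2 (−0.63) or T0901317 replicate 1 (−0.48), while Samd9l kept its call.

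The difference between the cell types was itself tested, as the change over vehicle in macrophages minus that in hepatocytes, in a fit of all 30 libraries. For MePipHCA it was called for 18 of 37 members, all with the lower change in macrophages (9.66% of all genes called, 4.62% lower and 5.04% higher), and its median was −0.73. GW3965 gave 4 such members (3.11% of all genes called, 1.53% lower and 1.58% higher), DMHCA 2 (2.75%, 1.34% lower and 1.42% higher) and T0901317 2 (3.64%, 1.35% lower and 2.28% higher). Desmosterol gave 0 (2.53%, 1.09% lower and 1.44% higher), where edgeR had 4 members at an unadjusted p under 0.05 (10.8%, against 12.9% of all genes), DESeq2 called 0 and edgeR with no filter on low counts called 3. The MePipHCA difference was −3.24 for Rtp4 (adjusted p = 3e-06), −0.76 for Stat2 (adjusted p = 8.98e-06) and −0.88 for Ddx58 (adjusted p = 1.12e-05). These 3 calls were kept without any 1 library. Without macrophage vehicle replicate 2 the number for MePipHCA was 13 (35.1%, against 8.05% of all genes), for GW3965 1 (2.7%, against 2.39%), for T0901317 1 (2.7%, against 2.88%) and for DMHCA 0 (1.8% of all genes). Medium and title date differ along with the cell type, so these cannot be told apart.

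The members' starting levels differed between the cell types. In vehicle cells, 28 of the 37 members were lower (75.7%) and 6 higher (16.2%) in macrophages than in hepatocytes, where 41.8% of all genes were lower, 36.5% higher and 78.2% called in either direction, with a median log2 fold change of −1.34, against −0.1 for all genes. By RPKM, which divides by transcript length, the median member stood at 6.83 in vehicle macrophages and 20 in vehicle hepatocytes, and 34 of the 37 exceeded 1 RPKM in each. The highest in macrophages were Lgals3bp at 127 ± 21.5 RPKM and Bst2 at 47.3 ± 7.2 RPKM (SD, n = 3), and the highest in hepatocytes were Bst2 at 166 ± 13.6 RPKM and Isg15 at 114 ± 15 RPKM (SD, n = 2). In log2 CPM, macrophages had less Isg15 (−4.39), Usp18 (−4.08) and Ifit1 (−4.04) and more Oas1a (1.59), Oas3 (1.20) and Lgals3bp (0.77). For Mx2, Ifi27l2a and Gbp3 the counts rest on different transcripts in the cell types, which limits that comparison. The same limit holds for the RPKM values of at least Irf7, Isg20 and Mx1.

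**Figure D5:**
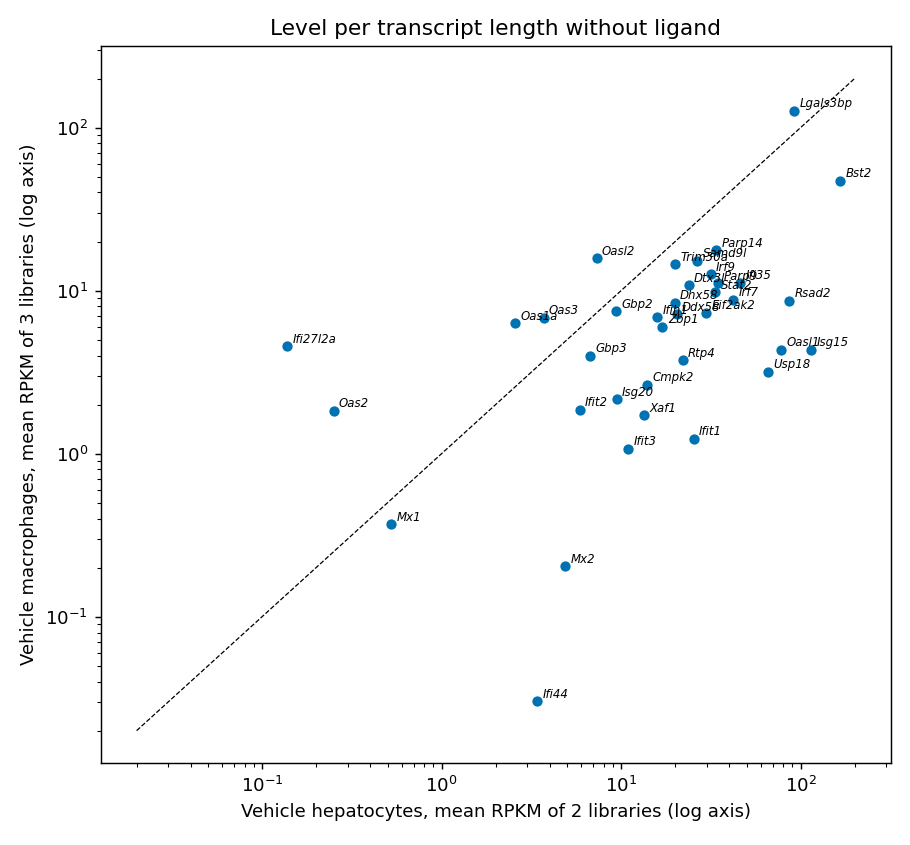
Mean RPKM of each of the 37 members in vehicle macrophages against vehicle hepatocytes, both on log axes, with 1 labelled point per gene and a line of equal level. Most members lie on the hepatocyte side of the line, and 6, Ifi27l2a, Oas2, Oas1a, Oas3, Oasl2 and Lgals3bp, lie on the macrophage side. Of these 6, Ifi27l2a lies farthest from the line, at 4.56 RPKM in macrophages and 0.138 RPKM in hepatocytes. Its 2 hepatocyte libraries held 0 and 0.277 RPKM, so its distance is uncertain.

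Genes upstream of the members moved in both directions in macrophages. Of 19 tested genes for interferon ligands, receptors and signalling, 4 rose and 7 fell with MePipHCA (21.1% and 36.8%, where 17.2% of all genes rose and 18.3% fell). Irf1, the activator of type II interferon targets, averaged 29 ± 1.65 CPM with MePipHCA and 62.3 ± 1.52 CPM with vehicle (SD, n = 3 each; log2 fold change −1.11 ± 0.09, adjusted p = 5.44e-13), and Irf1 was also called lower with each of the other 4 ligands. Irf8, a myeloid factor, averaged 271 ± 9.37 CPM with MePipHCA and 189 ± 5.88 CPM with vehicle, and Irf8, Ifngr1, Il10rb and Ifnar2, the last 3 being receptor subunits, rose with all 5 ligands. Of 15 nucleic acid sensors and adaptors, 3 rose and 7 fell with MePipHCA (20% and 46.7%), among them the endosomal RNA sensor Tlr8 (−1.16 ± 0.07), the DNA sensor Tlr9 (−0.82) and Tmem173, which encodes STING (−0.79). Of 40 other tested interferon-inducible genes, 25 fell (62.5%) and only Cd274 rose (2.5%) with MePipHCA, with the largest changes in Ifi205 (−2.71) and Cxcl10 (−2.66). In those 40, desmosterol lowered 4 (10%, against 4.57% of all genes). DMHCA, GW3965 and T0901317 lowered 3 each (7.5%), near the 5.9%, 6.69% and 6.55% of all genes that they lowered, in that order. Ifnb1 and Ifna4, which encode interferons, had no counts in any macrophage library. In hepatocytes no gene of the signalling or sensing lists was called over vehicle with any ligand. Only 0% to 2.17% of all genes were called there, so the lack of calls says little about these lists.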

How the data were processed

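The authors sequenced polyadenylated RNA in dUTP-marked libraries, per the labels' protocols. Reads were handled with STAR, HOMER and the mm10 build, per the submitters' processing notes, and the versions are not given in the sources used here. Deposited counts are raw and cover exons, with a single RefSeq transcript listed for each gene, per the file headers. Deposited RPKM values are scaled per the file headers for gene length and depth, and served here to compare levels between genes.

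Tests used edgeR 4.0.16 (R 4.3.3). After filterByExpr and TMM scaling, a quasi-likelihood model of 6 groups was fitted per cell type, with 11544 genes in macrophages and 13176 in hepatocytes. A fit of all 30 libraries joined by symbol, with 13700 genes, tested differences between cell types. P-values were adjusted by Benjamini-Hochberg over all genes, with a threshold of 0.05. The SE was taken as the log2 fold change over the square root of F, and intervals are at 95%. CPM use TMM-scaled library sizes. Scripts were tested on simulated data. Alternatives were DESeq2 1.42.0, its size factors in edgeR, no filter on low counts, counts thinned to 1 depth, a fit of only the 2 groups compared, a replicate block, and leaving out each library.

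The members and lists were chosen with earlier results of these data known. Values in every library are given for up to 8 called members with the largest change per ligand, and for Irf7 and Stat2. Promoter windows come from RefSeq on GRCm38.p6. Paralogues of the Ifit, Oas, Trim30, Ifi27l2 and Gbp families can share reads, and their values are uncertain for that reason.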

Additional observations from a re-analysis of the deposited data

Results flagged for a closer look

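The following members had a change over vehicle that differed between macrophages and hepatocytes by the interaction term of the joint edgeR fit. Each value is the log2 fold change in macrophages minus that in hepatocytes, with its adjusted p. Medium and title date differ with the cell type and cannot be told apart from it.

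With MePipHCA the difference was −3.24 for Rtp4 (3e-06), −1.45 for Ifit1 (0.0298), −1.30 for Irf7 (0.00586), −1.16 for Usp18 (0.00808), −1.09 for Oasl2 (0.000667), −1.09 for Zbp1 (0.0333), −1.05 for Oas3 (0.0061) and −1.03 for Xaf1 (0.00847). It was −0.88 for Ddx58 (1.12e-05), −0.76 for Stat2 (8.98e-06), −0.76 for Dtx3l (0.000148), −0.75 for Samd9l (2.58e-05), −0.67 for Dhx58 (0.0166) and −0.63 for Parp14 (4.7e-05). It was −0.56 for Irf9 (0.0142), −0.53 for Eif2ak2 (0.00839), −0.48 for Lgals3bp (0.00636) and −0.42 for Ifih1 (0.0426). The calls of Rtp4, Oasl2, Xaf1, Ddx58, Stat2, Dtx3l, Samd9l, Parp14 and Lgals3bp were kept when any 1 library was left out. On counts thinned to 1 depth the calls of Xaf1 (−0.89, adjusted p = 0.129), Dhx58 (−0.56), Ifih1 (−0.30), Ifit1 (−1.26), Irf9 (−0.47) and Zbp1 (−0.76) were lost, and Ifih1 also lost its call with no filter on low counts (−0.44, adjusted p = 0.0501). Irf7 lost its call without macrophage vehicle replicate 2 (−0.63, adjusted p = 0.099) or macrophage MePipHCA replicate 3 (−1.12, adjusted p = 0.0582). Oas3 lost it without hepatocyte MePipHCA replicate 2 (−0.86, adjusted p = 0.0837) and Usp18 without macrophage MePipHCA replicate 2 (−0.99, adjusted p = 0.0518). Dhx58 lost it without MePipHCA replicate 2 of hepatocytes (−0.65) or macrophages (−0.61), and Eif2ak2 without hepatocyte vehicle replicate 1 (−0.48) or macrophage MePipHCA replicate 3 (−0.48). Irf9 lost it without hepatocyte MePipHCA replicate 1 (−0.47), hepatocyte vehicle replicate 1 (−0.55), macrophage MePipHCA replicate 1 (−0.46) or macrophage vehicle replicate 2 (−0.50). Ifit1 lost it without hepatocyte MePipHCA replicate 1, macrophage MePipHCA replicate 1 or 3 or macrophage vehicle replicate 1 or 2 (−1.22 to −1.43). Zbp1 lost it without hepatocyte MePipHCA replicate 1, hepatocyte vehicle replicate 2, macrophage MePipHCA replicate 2 or 3 or macrophage vehicle replicate 2 or 3 (−0.86 to −1.08). Ifih1 lost it without hepatocyte MePipHCA replicate 1, hepatocyte vehicle replicate 1, any 1 macrophage MePipHCA library or macrophage vehicle replicate 1 or 2 (−0.33 to −0.46).

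With GW3965 the difference was −1.56 for Oas3 (6.62e-05), −0.86 for Oasl2 (0.0159), −0.56 for Ddx58 (0.00971) and −0.49 for Lgals3bp (0.0107). With DMHCA it was −1.10 for Oas3 (0.00885) and −0.46 for Stat2 (0.0209). With T0901317 it was −1.77 for Oas3 (9.14e-06) and −1.0 for Oasl1 (0.0296). Oas3 was called with DMHCA, MePipHCA, GW3965 and T0901317, comparisons that share their vehicle libraries. The Oas3 calls with GW3965 and T0901317 were kept when any 1 library was left out. Without macrophage vehicle replicate 2 the GW3965 calls of Oasl2 (−0.72), Ddx58 (−0.46) and Lgals3bp (−0.32), the DMHCA calls of Oas3 (−0.83) and Stat2 (−0.42) and the T0901317 call of Oasl1 (−0.95) were lost. Each of these was also lost without some other library, which was hepatocyte vehicle replicate 2 for Oasl2 (−0.73) and Lgals3bp (−0.45) with GW3965, hepatocyte GW3965 replicate 1 for Oasl2 (−0.73), and hepatocyte vehicle replicate 1 for Ddx58 with GW3965 (−0.54) and Oas3 with DMHCA (−1.06). For Stat2 with DMHCA it was hepatocyte vehicle replicate 1 (−0.49) or 2 (−0.43) or macrophage DMHCA replicate 2 (−0.44). For Oasl1 with T0901317 it was hepatocyte T0901317 replicate 1, hepatocyte vehicle replicate 2, macrophage vehicle replicate 3 or any 1 macrophage T0901317 library (−0.76 to −1.24).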

How the results depend on the processing

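Counts of called members mostly kept within 1.5 times the reported value. With no filter on low counts they became 11 for desmosterol in macrophages (7 reported), and in hepatocytes 2 for desmosterol, 2 for MePipHCA and 2 for GW3965 (0 reported for each) and 3 for T0901317 (1 reported). The same setting gave interactions of 3 for desmosterol (0 reported), 5 for DMHCA (2 reported), 8 for GW3965 (4 reported) and 4 for T0901317 (2 reported). Fitting only the 2 groups compared gave 4 for desmosterol in macrophages and, in hepatocytes, 1 for desmosterol, 2 for MePipHCA, 1 for GW3965, 3 for T0901317 and 1 for MePipHCA over DMHCA (2 reported). Counts thinned to 1 depth gave 4 for desmosterol and 6 for DMHCA (11 reported) in macrophages, 1 for MePipHCA over DMHCA in hepatocytes and 4 for the T0901317 interaction. DESeq2 gave 1 for MePipHCA over DMHCA in hepatocytes. Where fewer genes were tested or fewer samples entered, the alternative's construction changed, and the cause was otherwise not tested.

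The replicate numbers were not taken as pairs in the main fits. Over all genes, same-numbered ligand and vehicle libraries deviated together with correlations of −0.05 to 0.14 in macrophages (2 of 15 over 0.1) and −0.02 to 0.05 in hepatocytes (0 of 10). A correlation over all genes cannot exclude a shared replicate effect on the members. Hepatocyte replicate 1 held more than replicate 2 for most members in each group. With the replicate block the counts were 9, 11, 28, 7 and 10 in macrophages for desmosterol, DMHCA, MePipHCA, GW3965 and T0901317, and 2 for desmosterol, 2 for MePipHCA and 3 for T0901317 in hepatocytes. The block gave interactions of 1 for desmosterol and 7 for GW3965. These counts are not set here against the share of all genes called with the block, so they describe the setting and not the members.

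Leaving out 1 library, which in hepatocytes leaves a lone library assumed to vary like the other groups, gave in macrophages 2 to 9 for desmosterol, 4 to 11 for DMHCA, 24 to 28 for MePipHCA, 5 to 9 for GW3965, 6 to 11 for T0901317, 13 to 17 for MePipHCA over DMHCA and 13 to 17 for MePipHCA over T0901317. In hepatocytes it gave 0 to 1 for desmosterol, 0 to 0 for DMHCA, MePipHCA and GW3965, 0 to 1 for T0901317, 0 to 2 for MePipHCA over DMHCA and 2 to 4 for MePipHCA over T0901317. Interactions ranged over 0 to 1 for desmosterol, 0 to 5 for DMHCA, 13 to 18 for MePipHCA, 1 to 5 for GW3965 and 1 to 3 for T0901317, and the vehicle contrast over 33 to 34. The change of Irf7 with GW3965 ran between −0.77 and 0.15, the higher value without macrophage vehicle replicate 2. For single called members, and for Irf7 and Stat2 in macrophages, 1763 values over the alternatives kept the direction and the side of the threshold, 213 lost the call, 3 gained one and 1 turned round. Depth limits members near or under 1 CPM. In macrophages these were Mx1, Mx2 and Ifi44 and, with MePipHCA, also Oas2, Rtp4, Ifit3 and Ifi27l2a. In hepatocytes they included Oas2 and Ifi27l2a.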
